A study of Mus musculus with 6 samples.

Results

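SMAD1/5 sites of epiblast stem cells derived from mouse embryonic stem cells (ESD-EpiSCs, the primed pluripotent state) were compared between 1.5 h and 24 h of bone morphogenetic protein 4 (BMP-4, 10 ng/ml). The members were all peaks wider than 80 bp (end minus start) in the peak lists of these 2 libraries, 287 of the 24441 peaks in the series. Of these, 193 of 225 came from the 1.5 h list and 94 of 133 from the 24 h list. The ESD-EpiSCs came from E14 embryonic stem cells (ESCs) and were grown without serum in N2B27 medium with FGF2 and activin A, on plates coated with serum. Each time point was 1 library, so differences between the times have no replicate check and no test was made. No unstimulated ESD-EpiSC immunoprecipitate and no input DNA were analysed here, so a peak present at either time cannot be called induced by BMP-4. The ESC peak lists, from E14 cells in LIF+serum (9387 peaks) and in LIF+BMP-4 at 10 ng/ml (14696 peaks), served as a readout that the choice of members did not use. The lists give positions and a score but no reads, so their depth is unknown and a place missing from a list may still be bound.

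BMP ligands activate receptor kinases that phosphorylate SMAD1 and SMAD5. These factors enter the nucleus with SMAD4 and bind regulatory DNA. Their best known targets are the Id genes, which encode helix-loop-helix proteins that lack a DNA-binding region and hold back differentiation factors, and Smad6 and Smad7, which encode inhibitors that close a feedback loop. In the epiblast, BMP signals take part in setting up mesoderm and germ cells, whereas naive ESCs use them together with LIF to keep renewing.

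The promoters of Id2 and Id3 are shown because these genes carried several 1.5 h sites each and differed in which sites were called again at 24 h. Each line gives 250 bases before to 50 bases after the start of the gene, 5′ to 3′ on the strand of the gene. The sequences are RefSeq's, on GRCm38.p6: chr12:25096043-25096342 (minus strand) for Id2 and chr4:136143572-136143871 (plus strand) for Id3. Capitals mark GGCGCC and GGAGCC, GC-rich motifs tied to SMAD1/5, on either strand.
Id2: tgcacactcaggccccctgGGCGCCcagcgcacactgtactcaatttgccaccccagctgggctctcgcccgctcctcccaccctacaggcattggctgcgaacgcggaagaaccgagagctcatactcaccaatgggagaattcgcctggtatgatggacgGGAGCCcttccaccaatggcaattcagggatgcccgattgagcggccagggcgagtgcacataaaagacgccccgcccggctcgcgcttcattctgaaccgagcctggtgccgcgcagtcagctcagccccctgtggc
Id3: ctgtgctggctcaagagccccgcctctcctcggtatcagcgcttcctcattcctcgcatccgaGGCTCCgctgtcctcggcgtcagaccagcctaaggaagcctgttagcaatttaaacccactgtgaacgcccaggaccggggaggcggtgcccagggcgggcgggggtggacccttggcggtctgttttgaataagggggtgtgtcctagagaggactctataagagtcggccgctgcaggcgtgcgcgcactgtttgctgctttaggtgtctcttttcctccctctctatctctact
GGCGCC, which reads the same on both strands, occurred 1 time in the Id2 window and 0 times in the Id3 window. GGAGCC occurred 1 time in each. Of all 32851 promoters of this length, 11.9% held GGCGCC and 30.8% held GGAGCC. The SMAD boxes GTCTAGAC (0.213% of all promoters) and CAGACA (21%) were in neither window. Of 3 symbols looked up (Id1, Id2 and Id3), 2 had an entry. The matches describe these letters only. The peaks are on the mm9 build and were not placed on these windows.

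All peak positions are on mm9. No mm9 annotation was used, so gene names are recalled mm9 gene positions that were not checked against one, and no exon, intron or distance to a start site is given. A locus without a name may still lie at a listed gene. Names were attached to 38 of the 287 peaks, for 18 genes. They covered 10 of the 20 highest-scoring peaks at 1.5 h and 1 of the 20 highest at 24 h. Ranks count from the highest score (rank 1) among the peaks wider than 80 bp of the same list. The score is the authors' own value per peak, and neither scores nor ranks measure a change between the lists.

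Most sites were called at 1 time only. Merging overlapping peaks gave 273 loci: 179 early-only loci with a peak at 1.5 h, 80 late-only loci with a peak at 24 h, and 14 persistent loci with a peak at both. Of the 1.5 h peaks, 7.25% (14 of 193, exact binomial 95% interval 4.02 to 11.9) were called again at 24 h. Of the 24 h peaks, 14.9% (14 of 94, 8.39 to 23.7) had been called at 1.5 h. The intervals cover counting error over peaks only. These 2 shares count the same 14 loci, over lists of different length. With the 1.5 h list reduced to its 94 highest peaks, both lists had equal length and 13 persistent loci remained. Both directions then gave 13.8%, since each counts the same 13 loci over 94 peaks. Sites called at 1 time seldom had a near neighbour at the other. Counting 24 h peaks of any width, 166 of the 193 peaks at 1.5 h lay over 100 kb from the nearest one, and 2 lay within 1 kb without overlap.

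**Figure D1:**
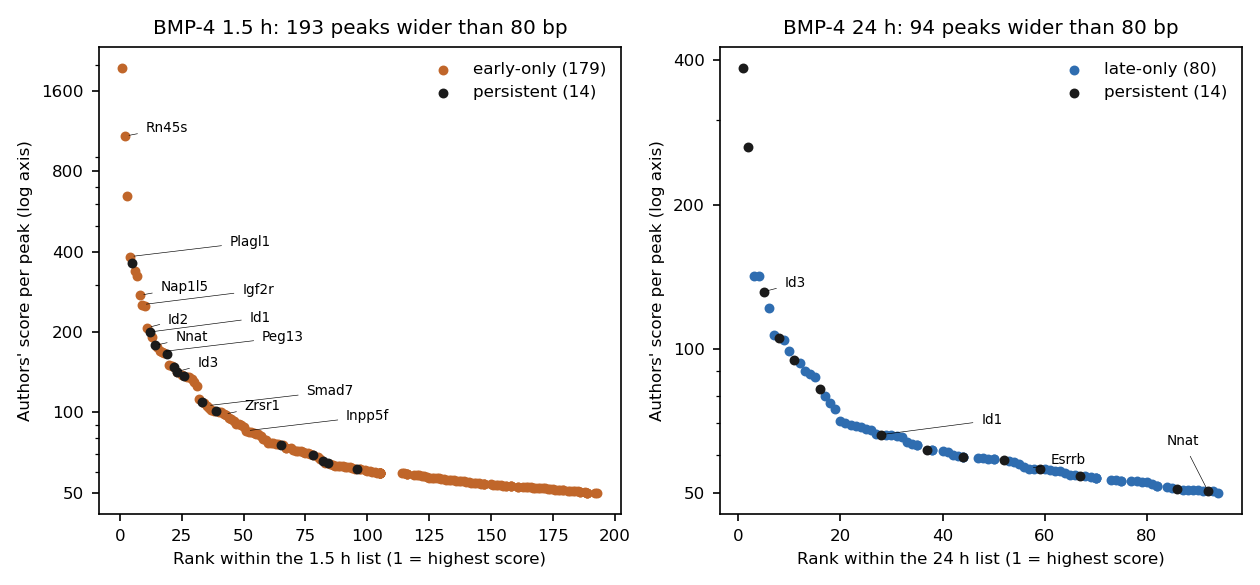
Authors' score (vertical, log axis) against rank (horizontal) for every peak wider than 80 bp, at 1.5 h (left, 193 peaks) and 24 h (right, 94 peaks). Black points are the 14 loci called at both times and coloured points were called at 1 time. The black points at 1.5 h all lie at rank 96 or better, whereas at 24 h they run from rank 1 to rank 92.

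Persistent sites sat in the upper part of the 1.5 h list. Of the 49 highest 1.5 h peaks, 9 were called again at 24 h (18.4%), of the next 48 peaks 5 were (10.4%), and of the remaining 96 peaks 0 were. For each run of 48 peaks in that lower part, a count of 0 allows a share of up to 7.40% by the exact binomial interval. In the 24 h list the persistent sites were more spread out, with 6 of the 24 highest peaks, 3 of the next 24, 3 of the 23 after those and 2 of the lowest 23. Persistent peaks were wider, with medians of 220 bp at 1.5 h and 154.5 bp at 24 h. Early-only peaks had a median of 131 bp and late-only peaks 111 bp. Width is not independent of class, since a wider peak more easily meets an overlap of 1 bp. It also followed score, with a median of 227 bp in the 49 highest 1.5 h peaks and 111 bp in the lowest 48. At the 14 persistent loci the midpoints of both peaks lay a median of 62.5 bp apart, from 1.5 to 140.5 bp, and the shared sequence ran from 24 to 318 bp.

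Id1 and Id3 accounted for 4 of the 14 persistent loci, and an imprinted region at Nnat for 1. At Id1 on chromosome 2, 3 sites spread over 31.8 kb were called at both times. Its 1.5 h peak of rank 12 spanned 152533313 to 152533580 (score 199.91), with a 24 h peak of rank 67 (54.41). The middle site, 152560787 to 152561054, stood at 22 (147.47) and 44 (59.49). The remaining site, 152565128 to 152565351, stood at 19 (165.01) and 28 (66.31). Every Id1 site thus stood among the 22 highest 1.5 h peaks, and all 3 were called at 24 h with narrower peaks of 87, 112 and 89 bp. In ESCs, the site of rank 12 overlapped 1 peak, in LIF+BMP-4 (rank 14333), the site of rank 22 overlapped 1, in LIF+serum (rank 6344), and the site of rank 19 overlapped none. Within 50 kb of the Id1 sites the LIF+serum list held 4 peaks and the LIF+BMP-4 list 6. The highest of these, at 152511983 to 152513228 in LIF+serum (rank 96) and 152512275 to 152513098 in LIF+BMP-4 (rank 46), overlapped no ESD-EpiSC peak wider than 80 bp.

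At Id3 on chromosome 4, the site that persisted ranked 23 at 1.5 h (135696340 to 135696542, score 142.14) and 5 at 24 h (135696472 to 135696691, score 131.67). The Id3 region held 2 further 1.5 h peaks, 4.24 and 7.49 kb farther along the chromosome by their midpoints. They ranked 188 (135700629 to 135700729) and 28 (135703842 to 135704010), and neither was called at 24 h. The peak of rank 188 overlapped a LIF+serum peak of rank 6907. The peak of rank 28 met no ESC peak, and the nearest one lay 508 bp away in LIF+serum. The persistent Id3 site overlapped a LIF+serum peak (rank 746) and a LIF+BMP-4 peak (rank 12355).

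The highest of the persistent loci in the 1.5 h list was not named. It lay on chromosome 13 at 48323123 to 48323434 with rank 5 at 1.5 h (score 361.77), and its 24 h peak at 48323212 to 48323362 had rank 11 (94.65). No ESC peak overlapped it, and the nearest were 8323 bp (LIF+serum) and 8402 bp (LIF+BMP-4) away.

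The 3 sites at Id2 were called at 1.5 h only. On chromosome 12 they lay at 25783668 to 25783926 (rank 11, score 207.46), 25783523 to 25783640 (rank 74) and 25777889 to 25777982 (rank 133). The sites of rank 11 and 74 overlapped the same pair of ESC peaks (LIF+serum rank 3710, LIF+BMP-4 rank 10027), and the site of rank 133 overlapped none. Whether Id2 differs from Id1 was not tested, with 1 library per time.

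**Figure D2:**
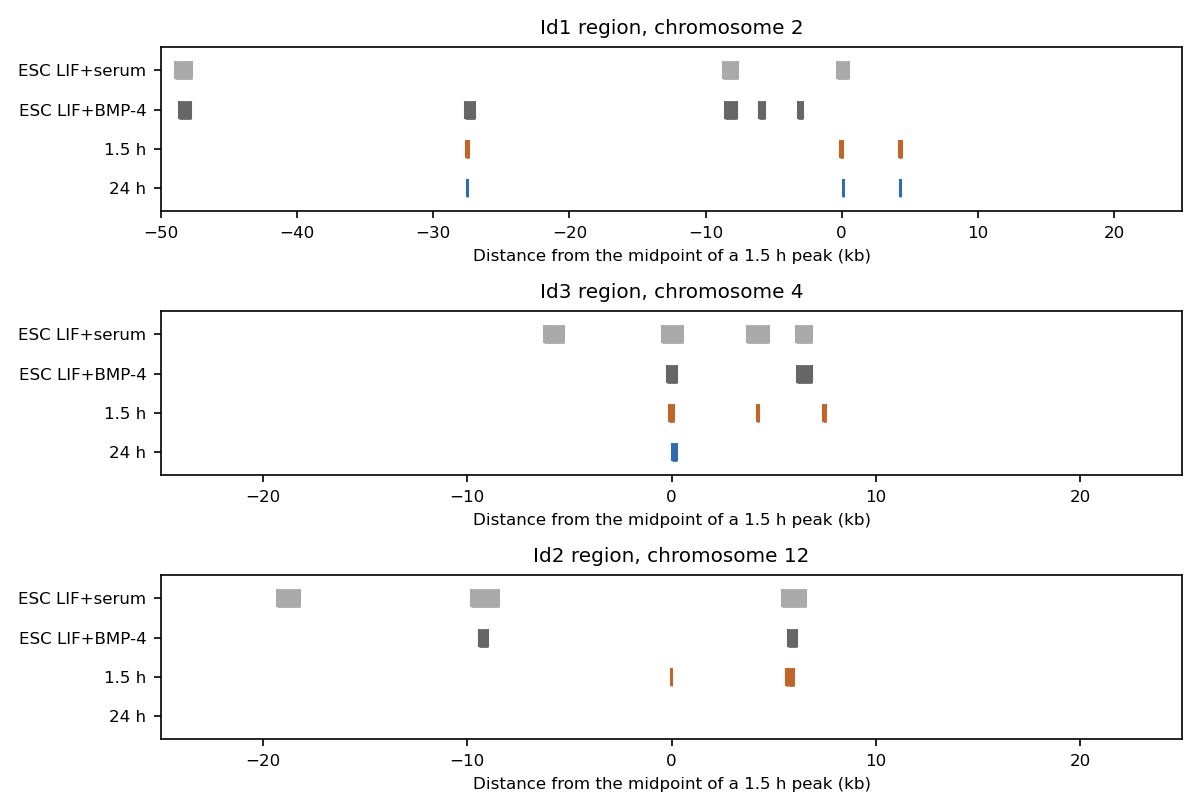
Peaks wider than 80 bp of the 4 lists (rows) around Id1, Id3 and Id2, drawn to scale against the distance in kb from the midpoint of a 1.5 h peak (horizontal). The 3 Id1 sites carry a bar at both 1.5 h and 24 h, Id3 has 1 such place out of 3, and the 3 Id2 sites (ranks 11 and 74 lie side by side and look like 1 bar) have a bar at 1.5 h but not at 24 h.

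Smad7, the feedback inhibitor, carried 2 early-only sites on chromosome 18, at 75502509 to 75502695 (rank 35, score 105.88) and at 75526681 to 75526779 (rank 142, 54.57). No ESC peak overlapped either of them. The ESC lists did hold a peak between them, at 75519797 to 75521148 in LIF+serum (rank 567), 5532 bp from the nearer site.

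Among 17 BMP target and feedback genes listed, 4 could be given a peak by name: Id1, Id2, Id3 and Smad7. Their 11 peaks at 1.5 h had a median rank of 28 of 193, and 4 of the 11 were called again at 24 h. Id1 held 3 of these 4. The share was 7.25% over all 1.5 h peaks and 18.4% over the 49 highest. All 4 of the 24 h peaks of these genes lay at sites called at 1.5 h. The list was chosen with results of these data known, so the counts are a description. The other 13 genes of the list were given no peak by name, and less certain names of this list were held back too.

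**Figure D3:**
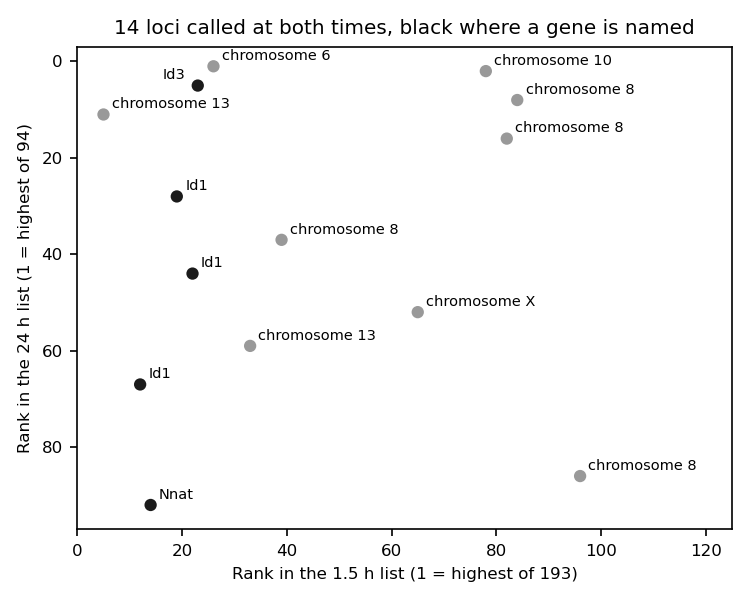
Rank in the 24 h list (vertical, 1 at the top, of 94) against rank in the 1.5 h list (horizontal, of 193) for the 14 persistent loci, 1 point each, black where a gene is named. The points for Id1, Id3 and Nnat all lie at 1.5 h rank 23 or better, and among the unnamed loci those on chromosomes 6 and 10 hold 24 h ranks 1 and 2.

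The other 8 unnamed persistent loci included the leading 24 h peaks. The highest 24 h peak, on chromosome 6 at 127286728 to 127287103 (score 384.56), overlapped the 1.5 h peak of rank 26 (127286786 to 127287246, score 136.29). The next, on chromosome 10 at 30347350 to 30347716 (score 263), overlapped the 1.5 h peak of rank 78 (30347483 to 30347620, score 69.53). A chromosome 8 site at 8609123 to 8609518 held rank 8 at 24 h (105.3) and 84 at 1.5 h (64.45). These 3 sites overlapped ESC peaks in both media, with LIF+serum ranks of 1307, 1042 and 597. Another chromosome 8 site, 131178487 to 131178727, held rank 39 at 1.5 h and 37 at 24 h and met ESC peaks in both media. The remaining 4 began at 15487122 on chromosome 13 (ranks 33 and 59), 12783832 on chromosome X (65 and 52), and 86400444 (82 and 16) and 44492840 (96 and 86) on chromosome 8. Of these, the chromosome 13 site met an ESC peak, in LIF+serum. The overlap between times was short at the sites of rank 33 and 96, 27 bp and 24 bp.

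Imprinted regions formed the largest named group of early-only sites. At such regions 1 parental copy carries DNA methylation from the germ line, and genes nearby are expressed from 1 parental copy. Of 14 imprinted genes listed, 8 carried 1.5 h peaks: Plagl1, Nnat, Igf2r, Zrsr1, Inpp5f, Mest, Grb10 and Peg3. Peg13, Nap1l5 and Rasgrf1 were recognised as imprinted after their values were seen. Together these 11 genes held 18 peaks at 1.5 h, of which 1, at Nnat, was called again at 24 h (5.56%, beside 7.25% over all 1.5 h peaks). No other 24 h peak was given to them. Of the listed imprinted genes, Snrpn, H19, Peg10, Nespas and Kcnq1ot1 were given no peak, and Blcap shares the locus of Nnat.

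Several of these sites stood high at 1.5 h, and 5 of the 11 genes were among the 20 highest peaks. Of these, Nap1l5 and Peg13 were named after their values were seen, so counting them is a description only. The 18 peaks had a median rank of 66, against 97 over all 1.5 h peaks. This median includes Nap1l5, Peg13 and also Rasgrf1, named after its value was seen. The 15 peaks of the 8 listed genes alone had a median rank of 75. Plagl1, which encodes a paternally expressed zinc finger factor, ranked 4 (chromosome 10, 12810517 to 12811119, score 382.82). Nap1l5 ranked 8 (chromosome 6, 58856840 to 58857253, score 274.27). Igf2r, which encodes a receptor that clears insulin-like growth factor 2, ranked 9 (chromosome 17, 12935021 to 12935350, score 253.12), and 2 adjoining peaks ranked 70 and 75. Nnat, which encodes the membrane protein neuronatin, ranked 14 (chromosome 2, 157385940 to 157386331, score 178.08). At 24 h its peak was 89 bp wide with a score of 50.55 and rank 92 of 94, close to the lowest score of that list, 50.15. The noncoding RNA gene Peg13 ranked 17 (chromosome 15, 72640272 to 72640565, score 168.85).

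The others lay lower in the 1.5 h list. Zrsr1 had 3 peaks within 502 bp (ranks 42, 48 and 89) and Mest had 3 within 907 bp (ranks 104, 126 and 174). Grb10, which encodes an adaptor that restrains insulin signalling, had 2 within 331 bp (ranks 85 and 120). Inpp5f ranked 51, Rasgrf1 62 and Peg3 105. All 18 peaks overlapped an ESC peak, against 39.4% of all 1.5 h peaks and 33.1% (58 of 175) of those outside the imprinted regions. The 18 include the peaks of Nap1l5, Peg13 and Rasgrf1, named after their values were seen. Without them, all 15 peaks of the listed genes overlapped an ESC peak. Adjoining peaks at Igf2r, Zrsr1 and Grb10 met the same ESC peaks. The Mest peaks all met the LIF+BMP-4 peak of rank 45. In LIF+serum the Mest peak of rank 104 met a peak of rank 1609, and those of rank 126 and 174 met one of rank 425. The 18 are therefore not separate sites. The best 1.5 h peak of each gene met a LIF+serum peak for 10 genes (ranks 7 to 1609, median 224 of 9387). It met a LIF+BMP-4 peak for all 11 (ranks 7 to 3536, median 91 of 14696). These medians count Nap1l5 (LIF+serum rank 124, LIF+BMP-4 rank 17), Peg13 (71 and 81) and Rasgrf1 (390 and 516), so they are a description only. Grb10 was the gene without a LIF+serum peak.

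**Figure D4:**
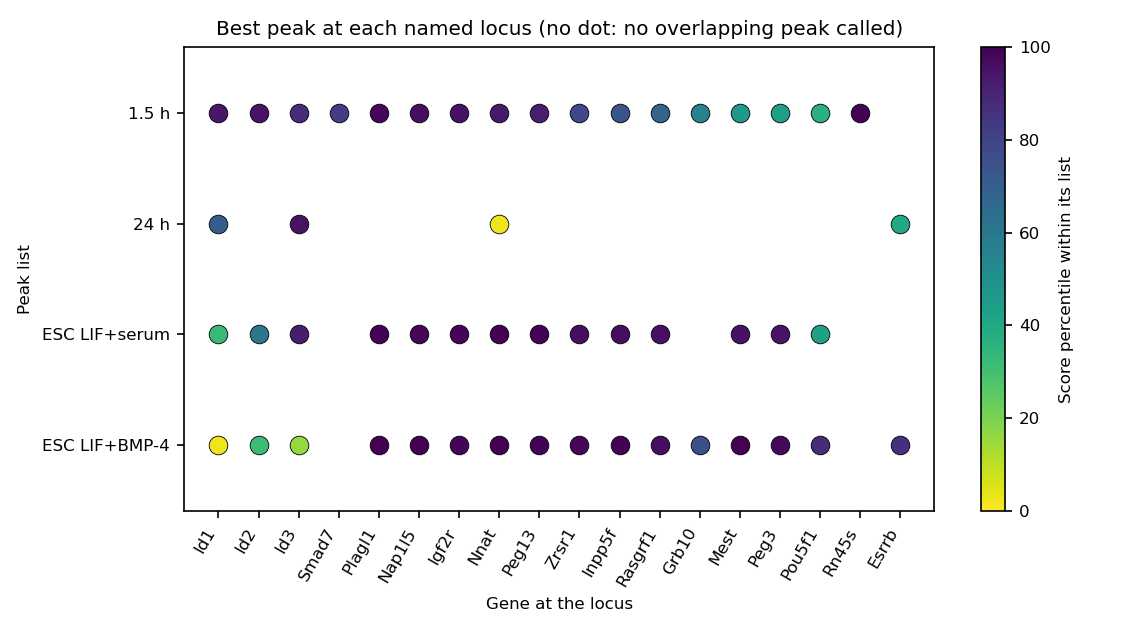
Colour gives the score percentile within its own list (100 highest) for the 18 named genes (horizontal) in the 4 lists (vertical). A 1.5 h or 24 h dot is the best peak of the gene at that time. An ESC dot is the best ESC peak that overlaps an ESD-EpiSC peak of the gene, and no dot means no such peak. ESC peaks off these sites are not drawn. Among them are those of LIF+serum rank 96 and LIF+BMP-4 rank 46 near Id1, and 567 and 526 near Smad7. The 11 imprinted genes, Plagl1 to Peg3, have a dot at 1.5 h and in LIF+BMP-4 but a 24 h dot only at Nnat, while Smad7 and Rn45s have no ESC dot.

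Peaks at Rn45s, the gene of the ribosomal RNA precursor, ranked 2 and 7 at 1.5 h. They spanned 39979942 to 39983328 (3387 bp, score 1081.14) and 39984373 to 39985775 (1403 bp, score 324.8) on chromosome 17, and no other 1.5 h peak was wider than 603 bp. Ribosomal RNA genes occur in many copies that an assembly does not hold in full, and the part of copy number in these peaks was not tested. Neither peak was called at 24 h or in an ESC list.

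Of the 10 highest early-only loci, 4 had no name. The highest 1.5 h peak of all was one of them, on chromosome 6 at 72166707 to 72167014 (score 1941.28). A further early-only peak on the same chromosome, at 72194359 to 72194656, ranked 18 (166.29). The nearest ESC peak was 180392 bp from the peak of rank 18. Rank 3 lay on chromosome 7 at 77502650 to 77503219 (score 646.81), 90 bp from a LIF+serum peak, with another peak of rank 30 at 77499600 to 77499816. Rank 6 lay on chromosome 2 at 151919096 to 151919489 (338.12). Rank 10 lay on chromosome 5 at 144015022 to 144015456 (249.4), in a run of 5 separate peaks within 1989 bp that ranked between 10 and 44. None of these peaks overlapped an ESC peak. Runs of peaks within 2 kb of each other numbered 14 at 1.5 h, holding 34 of the 193 peaks, and 3 at 24 h, holding 6 of the 94 peaks.

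Late-only sites began at rank 3 of the 24 h list, and none of the 10 highest was given a gene name. The highest lay on chromosome 15 at 61924343 to 61924579 (score 142.14) and overlapped a LIF+serum peak (rank 289) and a LIF+BMP-4 peak (rank 1642). Rank 4 lay on the same chromosome at 56574379 to 56574561 (141.79), with ESC ranks 4884 and 4149. The next lay on chromosome 13 at 4559114 to 4559273 (rank 6, 121.89), chromosome 8 at 42024537 to 42024730 (rank 7, 106.74), chromosome 4 at 146893598 to 146893960 (rank 9, 104.58) and chromosome 3 at 138318094 to 138318253 (rank 10, 99.11). Of these 4, the chromosome 8 site met ESC peaks, of rank 480 and 74. The last of the 10 highest late-only loci began at 172976787 on chromosome 1 (rank 12), 18523993 on chromosome 3 (rank 13), 52455571 on chromosome 11 (rank 14) and 2864817 on chromosome Y (rank 15).

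Of 12 pluripotency genes listed, 2 were given a peak by name. Pou5f1, which encodes OCT4, carried an early-only peak on chromosome 17 at 35641799 to 35641913 (rank 123 of 193, score 57.6). Esrrb, which encodes a nuclear receptor of the naive state, carried a late-only peak on chromosome 12 at 87839658 to 87839750 (rank 57 of 94, score 56.34). The Pou5f1 site met ESC peaks of rank 5344 (LIF+serum) and 1792 (LIF+BMP-4), and the Esrrb site met 1, of rank 2057, in LIF+BMP-4. Of 12 mesoderm and primitive streak genes listed, 0 were given a peak by name. Less certain names were held back, among them names of this list, so the count does not show that these genes lack a peak.

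Overlap with ESC peaks was 39.4% of all 1.5 h peaks (76 of 193) and 36.2% of all 24 h peaks (34 of 94). By class it was 9 of 14 persistent loci (64.3%, 35.1 to 87.2), 67 of 179 early-only loci (37.4%, 30.3 to 44.96) and 25 of 80 late-only loci (31.2%, 21.3 to 42.6). The 3 intervals overlap, and they cover counting error only. The 67 early-only loci met 45 distinct LIF+serum peaks and 48 distinct LIF+BMP-4 peaks. With the imprinted regions counted, the early-only loci met ESC peaks of higher standing. Their median best LIF+serum rank was 748 (55 loci), against 3117 for 16 late-only loci and 1174.5 for 8 persistent loci. In LIF+BMP-4 it was 970 for early-only, 2982 for late-only and 2398 for persistent loci. Without the imprinted regions the early-only share was 30.9% (50 of 162) and the median LIF+serum rank 2744 (40 loci). The persistent loci then stood highest in LIF+serum, with a median rank of 1307 (7 loci). In LIF+BMP-4 the medians were then 2010 for early-only, 2982 for late-only and 2524 for persistent loci.

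**Figure D5:**
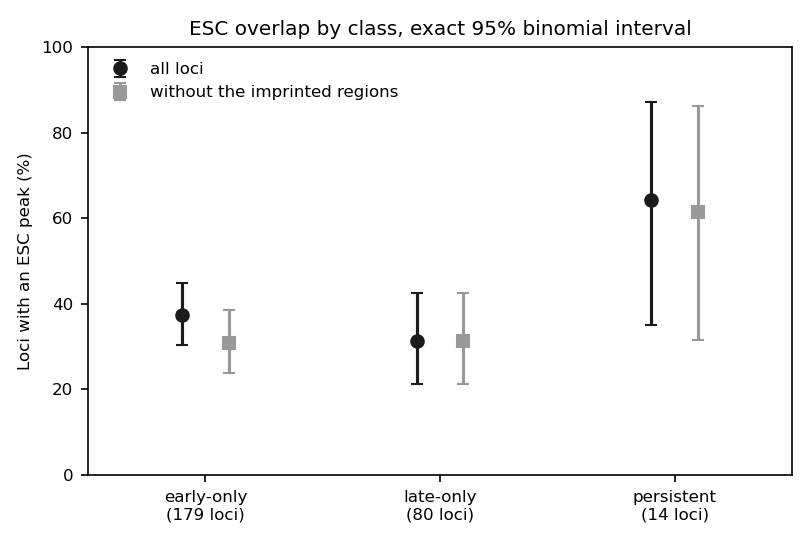
Share of loci that overlap a peak of either ESC list (vertical, percent) by class (horizontal), with exact 95% binomial intervals as bars. Circles are all loci (179, 80 and 14) and squares leave out the imprinted regions (162, 80 and 13). The persistent share is 64.3%, and the early-only share is 37.4% with and 30.9% without the imprinted regions.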

How the data were processed

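SMAD1/5 chromatin immunoprecipitation sequencing peaks were analysed for 1 library at each time, with the titles giving the groups. Bowtie 1.1.0, Picard and MACS 1.4.2 on mm9 are named in the submitters' processing notes, without their roles. The authors deposited, per library, peak positions and a score per peak, whose scale no source states. The score was used only to rank within a list. Read filters, control library and depth: not given in the sources used here.

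Peaks of 80 bp or less were left out. Just inside the limit lay a 1.5 h peak of 81 bp (score 76.05) and a 24 h peak of 83 bp (54.68), and just outside a peak of 80 bp (59.49) and one of 76 bp (50.26). Overlap meant at least 1 bp, and overlapping peaks of both times were merged into loci. Python 3.11.15, numpy 2.4.6, pandas 2.3.3, scipy 1.17.1 and matplotlib 3.10.9 were used. The overlap code was tested on 3 simulated pairs of lists (287 peaks each) and returned the planted number of shared places in all 3. Loci described singly were every persistent locus, the 10 highest early-only and late-only loci, and loci of the listed genes, with a gene name or by position. The members, the gene lists and the names were chosen with earlier results of these data known. Gene names are recalled mm9 positions, not checked against an annotation. Loci whose gene was less certain are given by position only or not singled out. Among them are candidates for genes of the BMP and the mesoderm lists. Counts of named genes may therefore miss genes that the lists hold. A wrong name among the unchecked ones would make such a count too high. The alternatives were other limits on width and score, other overlaps, lists of equal length and removal of chromosomes, of imprinted regions or of Rn45s.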

Additional observations from a re-analysis of the deposited data

How the results depend on the processing

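No paired analysis was possible because each time has 1 library. Over 6 values and 8 other settings, 41 recomputed values kept a share within its 95% interval or the number of persistent loci within 1.5 times, and 7 did not. A score of at least 70 gave 3 persistent loci, 3.9% of 1.5 h peaks called again at 24 h, and an ESC peak at 50% of late-only loci (9 of 18). A score of at least 100 gave 2 persistent loci, both with an ESC peak (100%), and an ESC peak at 71.4% of late-only loci (5 of 7). Lists of equal length gave 13.8% of 1.5 h peaks called again. The score limits leave fewer peaks (21 and 9 at 24 h). The list of equal length kept the highest 1.5 h peaks, which hold 13 of the 14 persistent loci. For the late-only shares the cause was not tested. Removal of the imprinted regions or of Rn45s, chosen after the data were seen, moved none of the 6 values past its limit. All peaks without a limit on width gave 16 persistent loci, and overlap of 50% of the shorter peak gave 10. Unknown depth limits every statement that a site was called at 1 time only.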

Other observations

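The 1.5 h list held 32 peaks of at most 80 bp and the 24 h list 39, of which 2 in each list met an ESC peak. At 24 h, 2 of them met a wider 1.5 h peak, and 1 narrow peak at each time met a narrow peak of the other. Chromosome X held 8 and 9 of the narrow peaks, against 1 of the wider peaks at each time. The highest narrow peaks had scores of 192.01 at 1.5 h and 121.64 at 24 h, so narrow peaks were not all low in score.

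Many peaks had exactly the same score as another peak of their list, 37 of 193 at 1.5 h and 16 of 94 at 24 h. The value 59.49 was shared by 9 peaks at 1.5 h, among them the one at Peg3, and by 3 at 24 h, among them the middle site at Id1. Order among such peaks carries no information.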
